A study of Mus musculus with 6 samples.

Results

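The genes described here are 48 genes of the endoplasmic reticulum (ER) that fold secretory proteins, signal when folding fails, degrade misfolded proteins, or move folded ones out of the compartment. They were chosen by name, as a list of ER folding, unfolded protein response and ER export genes. Earlier results of these data were known at that choice, so counts set beside all genes describe the list and do not test it. Each gene was read from the brightest probe set annotated to it alone. Of the 48 genes, 47 had such a probe set, out of 12393 genes measured in this way, and Sec61g had none. Expression was measured on Affymetrix arrays in the livers of male mice aged 12 weeks. The knockout group was 3 liver samples of chromogranin A (Chga) knockout mice and the comparison group was 3 of wild-type mice, with 1 array per sample and no treatment named in either group. The labels name the knockout line only by a literature reference, and do not say which genetic background either group has or whether the samples were pooled.

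Hepatocytes secrete most plasma proteins, and each of these enters the ER through a translocon, is folded with chaperones and glycosylated, and leaves in COPII-coated vesicles. When unfolded protein accumulates, 3 sensors in the ER membrane, encoded by Ern1 (IRE1), Eif2ak3 (PERK) and Atf6, raise chaperone and degradation genes through the transcription factors XBP1, ATF4 and cleaved ATF6. This is the unfolded protein response. Hspa5 encodes GRP78 (BiP), the main chaperone of the ER lumen, which is of interest here because it is a binding partner of pancreastatin, a peptide cut from chromogranin A.

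Values are array intensities in arbitrary units, and changes are knockout minus wild type on the scale of log2(intensity + 16). Each change is given with the standard error (SE) of a limma fit over all kept probe sets, and adjusted p-values are Benjamini-Hochberg values over those 13576 probe sets. The threshold was 0.05. A gene was kept when its probe set was in the upper 60% by mean log2 value, and 46 of the 47 measured genes were. Atf3 was not. Array signals correlated at 0.964 to 0.974 within groups and 0.96 to 0.967 between them, and the share of probe sets above a background reference ran from 64.4% to 76.9%, lowest in knockout replicate 2. The only Chga probe set was dim, with 1 of 3 arrays of each group above background, and it does not check the group labels.

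Among the ER genes, Lman1, the cargo receptor ERGIC-53, rose in knockout liver by 0.62 ± 0.11 (SE, n = 3 per group), or 1.54-fold, with an adjusted p of 0.0435. It was the only member called. Of all kept probe sets, 0.376% were called, and of the 8047 genes with a kept probe set 0.423% were, 0.211% higher and 0.211% lower. Hspa5 stood next, at 0.52 ± 0.10 with an adjusted p of 0.0504, just above the threshold, and was not called. The other members with an unadjusted p under 0.05 were Mcfd2, Sar1b and Manf, all with higher means in knockout, and Herpud1, with a lower one. These 6 of 46 tested members are 13%, near the 10.3% of all genes (4.57% higher and 5.69% lower), so the list as a whole did not stand apart by this count.

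The intensities of 9 members did not overlap between the groups. Hspa5, Creld2, Calr, Edem1, Lman1, Mcfd2 and Sar1b were higher in every knockout array, and Atf6 and Herpud1 were lower in every one. This is 19.6% of the tested members, beside 15.6% of all genes (7.77% higher and 7.84% lower). The median change of the 47 measured members was 0.052, beside -0.0034 for all 12393 genes, and 28 of the 47 had positive changes. The plot of changes by role shows most members within their error of 0.

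**Figure D1:**
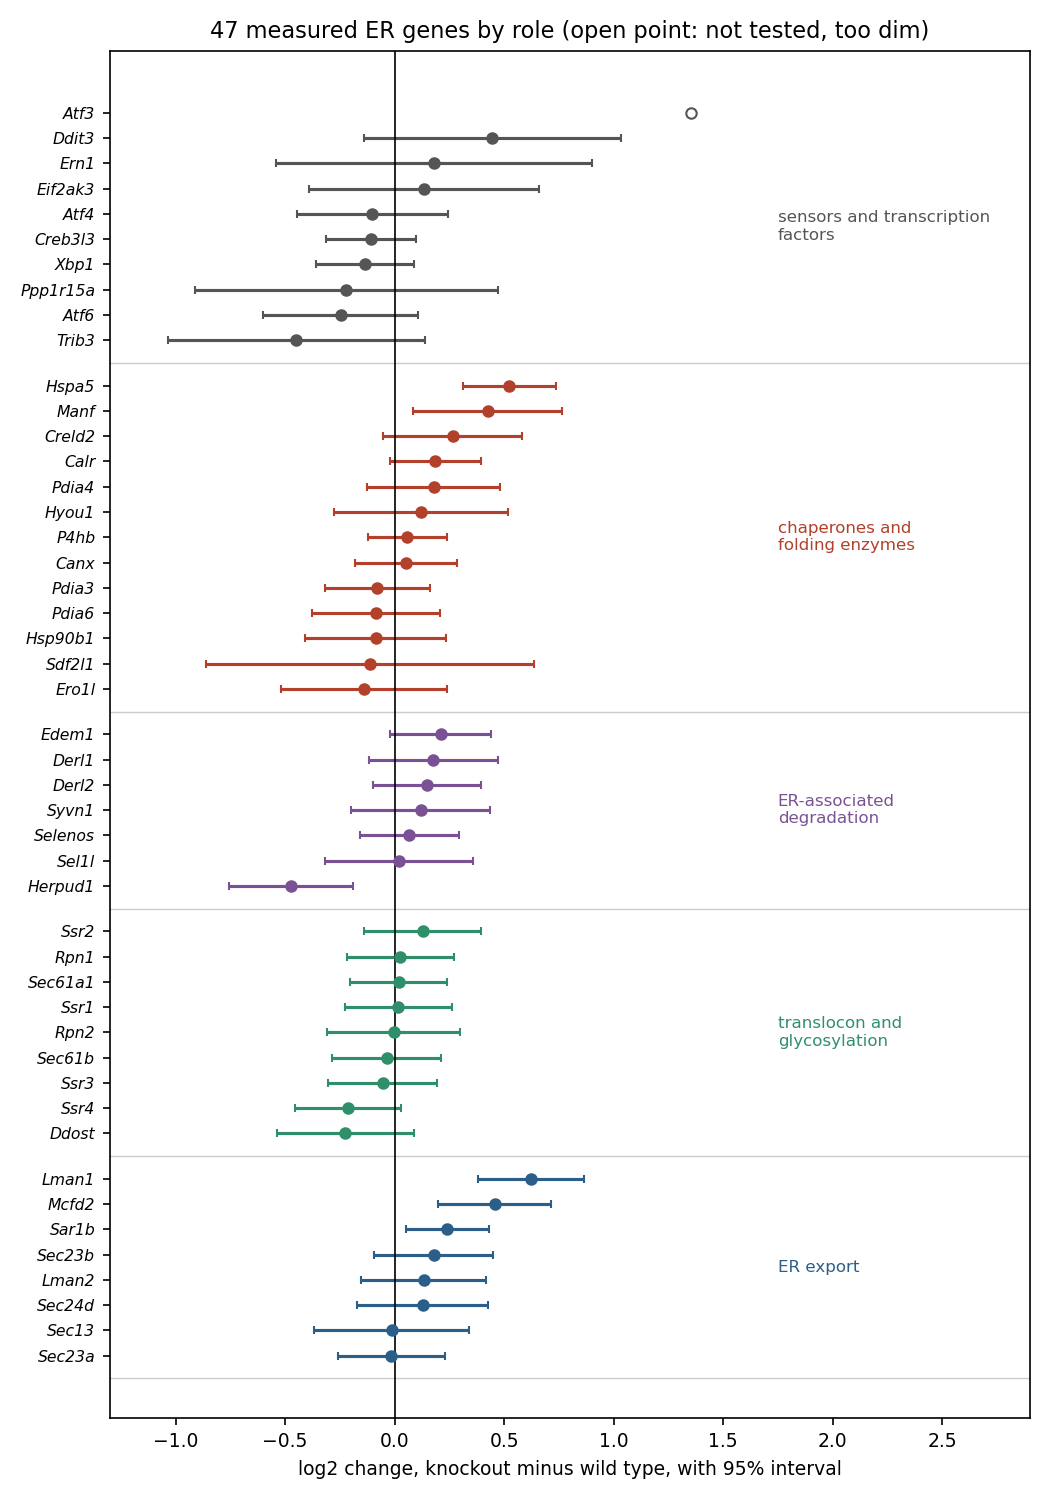
Log2 change (knockout minus wild type) of the 47 measured ER genes, grouped by role, with 95% intervals of the limma fit; the open point, Atf3, was too dim to be tested. The intervals of Hspa5, Manf, Lman1, Mcfd2, Sar1b and Herpud1 lie to one side of 0, and Herpud1 alone of these lies below it.

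By role, the sensors and the factors they control are described first, since they start the response. Ern1, whose product splices Xbp1 mRNA, gave intensities of 361, 461 and 462 in knockout liver and 372, 387 and 363 in wild type. Eif2ak3, the kinase that slows translation by phosphorylating eIF2α, read 1360, 1019 and 1118 against 756, 1326 and 1159. Both sets of values overlapped, with changes of 0.18 ± 0.33 for Ern1 and 0.14 ± 0.24 for Eif2ak3, and the 95% interval of Ern1 ran from -0.54 to 0.90. Without knockout replicate 1 the change of Ern1 was 0.29. The sign for Eif2ak3 turned without wild-type replicate 1, to -0.098.

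Atf6, the membrane-bound transcription factor released by cleavage in the Golgi, read 1702, 1408 and 1784 in knockout and 1827, 2126 and 1841 in wild type. Every knockout array was below every wild-type array, by as little as 1784 against 1827, and the change of -0.25 ± 0.16 did not pass (limma, adjusted p = 0.656). With quantile normalization or median centring of the arrays the groups overlapped, and without knockout replicate 2 the change was -0.14. Creb3l3, a related factor of hepatocytes (CREBH), read 24308, 25791 and 26581 against 30132, 26565 and 26098, a change of -0.11 ± 0.09 with overlapping groups, which was -0.04 without wild-type replicate 1.

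Xbp1, the target of IRE1 splicing, read 38705, 43866 and 49301 in knockout and 50780, 46908 and 46440 in wild type. The highest knockout array lay above the lower wild-type arrays, and the change was -0.13 ± 0.10. It was -0.05 without knockout replicate 1, -0.22 without knockout replicate 3 and -0.08 with the mean of its probe sets. Its other kept probe sets stood at -0.20, -0.13 and 0.13, and the array does not separate the spliced from the unspliced transcript. Atf4, the factor translated when eIF2α is phosphorylated, read 8393, 8763 and 6410 against 7680, 10180 and 7445, a change of -0.10 ± 0.16 with overlapping groups. Its sign turned without knockout replicate 3 (0.04), without wild-type replicate 2 (0.04) and with the mean of its probe sets (0.01).

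The targets of ATF4 did not share a sign. Ddit3 (CHOP), a pro-apoptotic factor of prolonged ER stress, read 1107, 663 and 1082 in knockout and 639, 585 and 823 in wild type. Knockout replicate 2 lay inside the wild-type range and the other knockout arrays above it, for a change of 0.45 ± 0.27 and a 95% interval from -0.14 to 1.03. Without knockout replicate 2 the change was 0.68 (limma, unadjusted p = 0.023, adjusted p = 0.484). Trib3, an inhibitor of ATF4 and CHOP, was lower, at -0.45 ± 0.27. Without knockout replicate 2 it too had an unadjusted limma p under 0.05, in the direction opposite to Ddit3. Ppp1r15a (GADD34), which restores translation by dephosphorylating eIF2α, stood at -0.22 ± 0.31. Atf3, a stress-induced factor, read 352, 533 and 235 against 107, 425 and 40, with 1 of 3 wild-type arrays above background, and was too dim to be tested. With all 6 arrays, none of the 9 tested genes of this group had an unadjusted limma p under 0.05, beside 10.3% of all genes. The smallest was 0.12.

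Among 13 chaperones and folding enzymes, Hspa5 had the largest change. It read 64448, 56137 and 53636 in knockout and 37588, 42890 and 40514 in wild type. The lowest knockout array was above the highest wild-type array, with means of 58074 ± 5660 (SD, n = 3) and 40331 ± 2656, a 1.44-fold difference. The 95% interval of its log2 change ran from 0.31 to 0.74. Its second probe set, also without overlap between the groups, stood at 0.28 ± 0.10, with an adjusted p of 0.374. Hspa5 did not pass with any 1 array left out (limma, adjusted p from 0.0585 to 0.198), but its change stayed between 0.45 and 0.58.

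Hsp90b1 (GRP94), the ER form of HSP90 and a usual companion of Hspa5 in the unfolded protein response, read 39583, 31734 and 25443 in knockout and 34636, 36287 and 30426 in wild type. The knockout arrays spread on both sides of the wild-type arrays, with a change of -0.09 ± 0.15 and a 95% interval from -0.41 to 0.23. Without knockout replicate 3 the change was 0.07, with the sign turned, and without knockout replicate 1 it was -0.25. Its second probe set was at 0.00. Within each array, the log2 difference between Hspa5 and Hsp90b1 was 0.70, 0.82 and 1.08 in knockout and 0.12, 0.24 and 0.41 in wild type. The groups differed by 0.61, in a pair chosen after the values were seen. An exact permutation test over arrays gave a two-sided p of 0.1, the smallest that 3 against 3 arrays can give. Most of this difference is the change of Hspa5 itself, 0.52, so the pair adds little to it.

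Promoters of chaperone genes are known for the ER stress response element (ERSE), which ATF6 and XBP1 bind with NF-Y, and which reads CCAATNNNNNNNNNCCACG. In the 250 bases before the start site, taken from RefSeq promoters of mouse assembly GRCm38.p6 and read on both strands, 41 of the 48 listed genes had a sequence. Of these 41, 7 held a full match: Hspa5, Hsp90b1, Calr, Canx, Pdia6, Creld2 and Syvn1. Over all 32851 promoters in that table, 37 (0.113%) held one, counted by promoter and not by gene. The element is known from chaperone promoters, so this contrast is no result of these data. The stretch before Hspa5 (chr2:34771840-34772089, plus strand), shown as the promoter of the member with the largest change among the chaperones, has its match in capitals, 65 to 47 bases before the start:
Hspa5: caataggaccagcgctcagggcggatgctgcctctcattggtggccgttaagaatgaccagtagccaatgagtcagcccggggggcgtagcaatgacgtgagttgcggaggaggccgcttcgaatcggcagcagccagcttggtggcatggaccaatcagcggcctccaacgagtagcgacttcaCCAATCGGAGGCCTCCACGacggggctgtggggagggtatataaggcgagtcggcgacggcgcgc

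The matches of the other members are shown with 10 bases on each side, because these genes share the element with Hspa5 and can be set beside it. Capitals mark the match, which runs in the reverse direction in Calr, Creld2 and the second site of Hsp90b1. The sites lie at chr10:86705628-86705666 and chr10:86705523-86705561 (Hsp90b1, minus strand), chr8:84847065-84847103 (Calr, minus), chr11:50325790-50325828 (Canx, minus), chr12:17266481-17266519 (Pdia6, plus), chr15:88819510-88819548 (Creld2, plus) and chr19:6046522-6046560 (Syvn1, plus).
Hsp90b1, first site: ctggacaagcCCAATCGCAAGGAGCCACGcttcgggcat
Hsp90b1, second site: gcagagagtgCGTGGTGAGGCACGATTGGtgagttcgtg
Calr: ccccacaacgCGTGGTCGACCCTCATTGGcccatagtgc
Canx: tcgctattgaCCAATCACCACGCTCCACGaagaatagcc
Pdia6: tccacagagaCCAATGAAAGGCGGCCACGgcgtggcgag
Creld2: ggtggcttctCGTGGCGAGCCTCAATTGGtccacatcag
Syvn1: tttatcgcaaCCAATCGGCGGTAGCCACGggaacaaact

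The 7 genes with this element did not share a direction. Their changes ran from -0.09 to 0.52, with a median of 0.12 beside 0.016 for the 33 measured members whose promoter held no match. Hspa5, Creld2 and Calr were higher in every knockout array, as were 3 of the 33 without a match and 7.77% of all genes. Hsp90b1, with 2 matches, Pdia6, Canx and Syvn1 lay within their error of 0. A match says that these letters are present and not that a factor binds there.

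Creld2, a secreted ER stress protein with disulfide isomerase activity, read 2301, 2403 and 2549 in knockout and 2082, 1786 and 2174 in wild type. Calr, the lectin chaperone of glycoproteins, read 36880, 36118 and 41358 against 34830, 30690 and 34971. In both genes all knockout arrays were above all wild-type arrays by a small margin, with changes of 0.27 ± 0.14 and 0.19 ± 0.09 that did not pass (limma, adjusted p = 0.588 and 0.559). Calr overlapped between the groups with quantile normalization. The other Calr probe sets stood at 0.11 and 0.08 with overlapping groups.

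Manf, a secreted ER stress factor that binds GRP78, read 14519, 11265 and 14945 in knockout and 11302, 11061 and 8061 in wild type. Knockout replicate 2 fell just below wild-type replicate 1, so the groups overlapped, with a change of 0.43 ± 0.15 and an adjusted p of 0.384. Without wild-type replicate 3 the change was 0.27, and the unadjusted limma p went from 0.0191 to 0.0917.

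The rest of the folding group lay close to 0. The disulfide isomerases Pdia3 (-0.08 ± 0.11), Pdia4 (0.18 ± 0.14), Pdia6 (-0.09 ± 0.13) and P4hb (0.06 ± 0.08) had overlapping groups, as did the oxidase Ero1l (-0.14 ± 0.17), which reoxidises them. The membrane lectin Canx, partner of Calr, was at 0.05 ± 0.11. Hyou1 (GRP170), an exchange factor for Hspa5, was at 0.12 ± 0.18, and the co-chaperone component Sdf2l1 at -0.11 ± 0.34. In all, 2 of 13 (15.4%) had an unadjusted p under 0.05, Hspa5 and Manf, beside 10.3% of all genes. By limma, 0 were called, beside 0.423% of all genes.

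**Figure D2:**
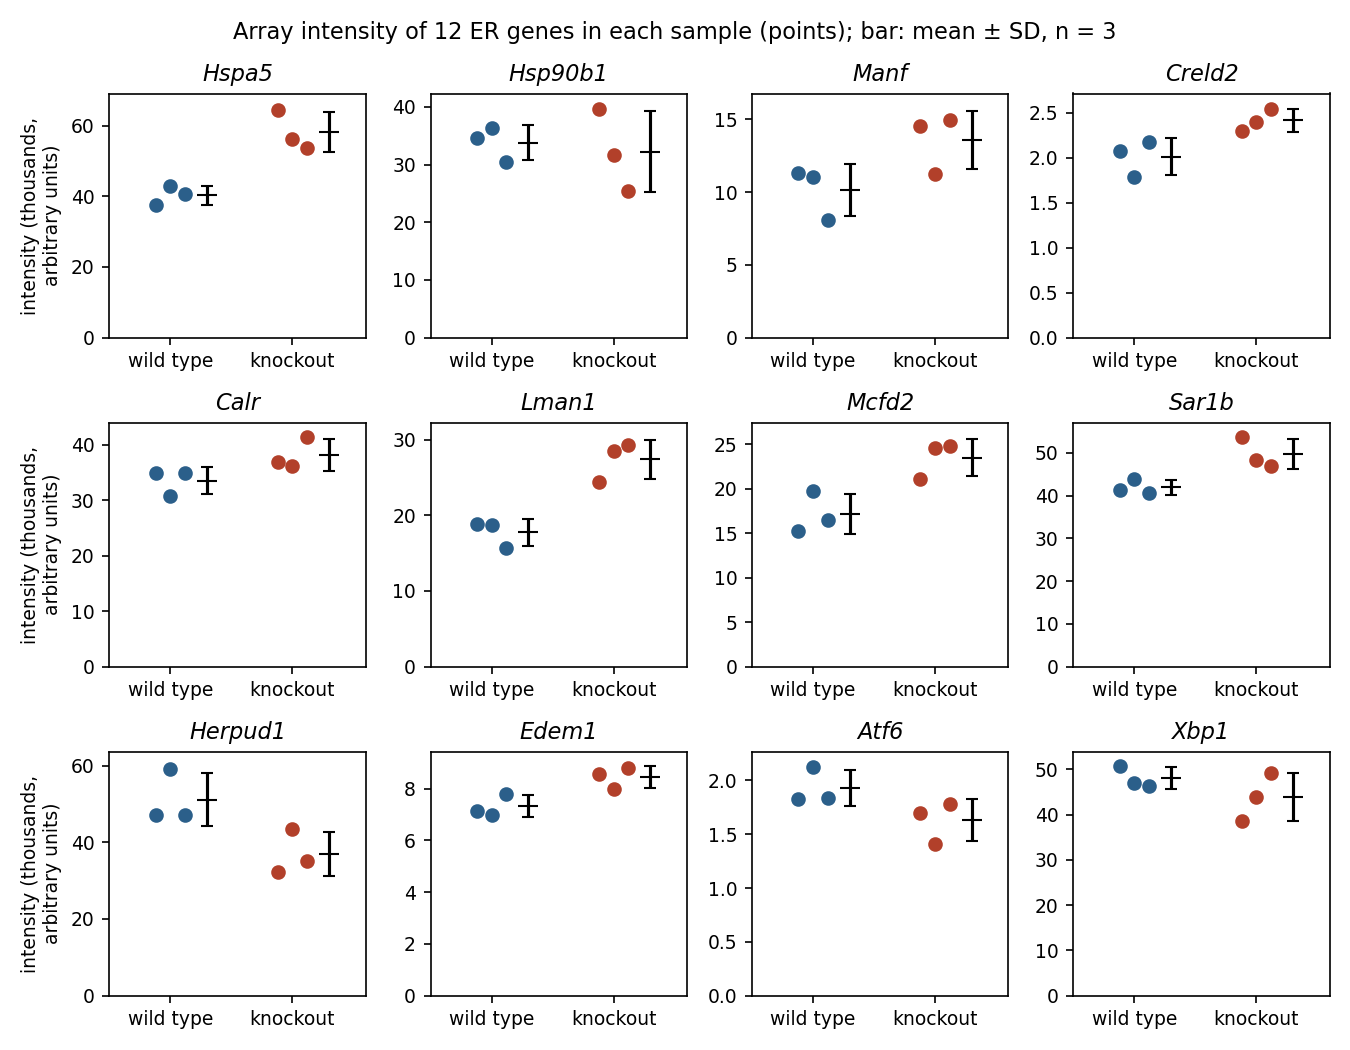
Intensity of 12 ER genes in each of the 3 wild-type and 3 knockout samples (points), with the mean and SD of each group beside them; every axis starts at 0. The knockout points of Hspa5, Creld2, Calr, Lman1, Mcfd2, Sar1b and Edem1 lie above all wild-type points, those of Herpud1 and Atf6 below them, and those of Hsp90b1, Manf and Xbp1 overlap.

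The degradation group held the member with the lowest change of the list. Herpud1, a membrane protein of the ubiquitin ligase complex that retrotranslocates misfolded proteins and itself a strong target of the unfolded protein response, read 32300, 43408 and 35192 in knockout and 47021, 59254 and 47199 in wild type. Every knockout array was below every wild-type array. The means were 36966 ± 5763 (SD, n = 3) and 51158 ± 7012, a change of -0.47 ± 0.13 with a 95% interval from -0.75 to -0.19. Its second probe set gave -0.47 ± 0.12, also without overlap. Neither passed over all genes (limma, adjusted p = 0.189 and 0.155).

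Herpud1 and Hspa5, both targets of the unfolded protein response, thus stood on opposite sides of 0. Within each array, the log2 difference between Hspa5 and Herpud1 was 0.996, 0.37 and 0.61 in knockout and -0.32, -0.47 and -0.22 in wild type. The group difference was 0.99, in a pair chosen after the values were seen. Hspa5 was higher and Herpud1 lower in every knockout array. An exact permutation test could therefore give only its smallest two-sided p, 0.1, and adds nothing to this. The Herpud1 promoter holds a different element, ERSE-II (ATTGGNCCACG), found in 10 (0.0304%) of all promoters and in no other member. It also holds a match to the C/EBP-ATF element that ATF4 binds (TGATGNAAN), found in 3.44% of promoters and, among the members, also in Atf3. The stretch is shown because it differs from that of Hspa5. It lies at chr8:94386179-94386428 on the plus strand, with both matches in capitals, the ATF4 element in reverse 113 to 105 bases and ERSE-II 52 to 42 bases before the start:
Herpud1: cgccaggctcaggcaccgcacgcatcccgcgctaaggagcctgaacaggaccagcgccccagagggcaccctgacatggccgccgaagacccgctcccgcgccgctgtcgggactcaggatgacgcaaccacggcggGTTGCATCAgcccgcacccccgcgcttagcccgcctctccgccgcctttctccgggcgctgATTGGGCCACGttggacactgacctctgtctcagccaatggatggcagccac

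Edem1, a lectin that marks misfolded glycoproteins for degradation, read 8581, 7978 and 8805 in knockout and 7143, 6990 and 7792 in wild type. The groups did not overlap, with a change of 0.21 ± 0.10 (limma, adjusted p = 0.549), and its second probe set stood at 0.15 ± 0.10, again without overlap. The ligase Syvn1 (HRD1; 0.12 ± 0.14), its adaptor Sel1l (0.02 ± 0.15), the channel proteins Derl1 (0.18 ± 0.13) and Derl2 (0.15 ± 0.11), and the selenoprotein Selenos (0.07 ± 0.10), which links them to the VCP ATPase, had overlapping groups. Of the 7 genes, 1 (14.3%) had an unadjusted p under 0.05, Herpud1, beside 10.3% of all genes. None was called, beside 0.423% of all genes.

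**Figure D3:**
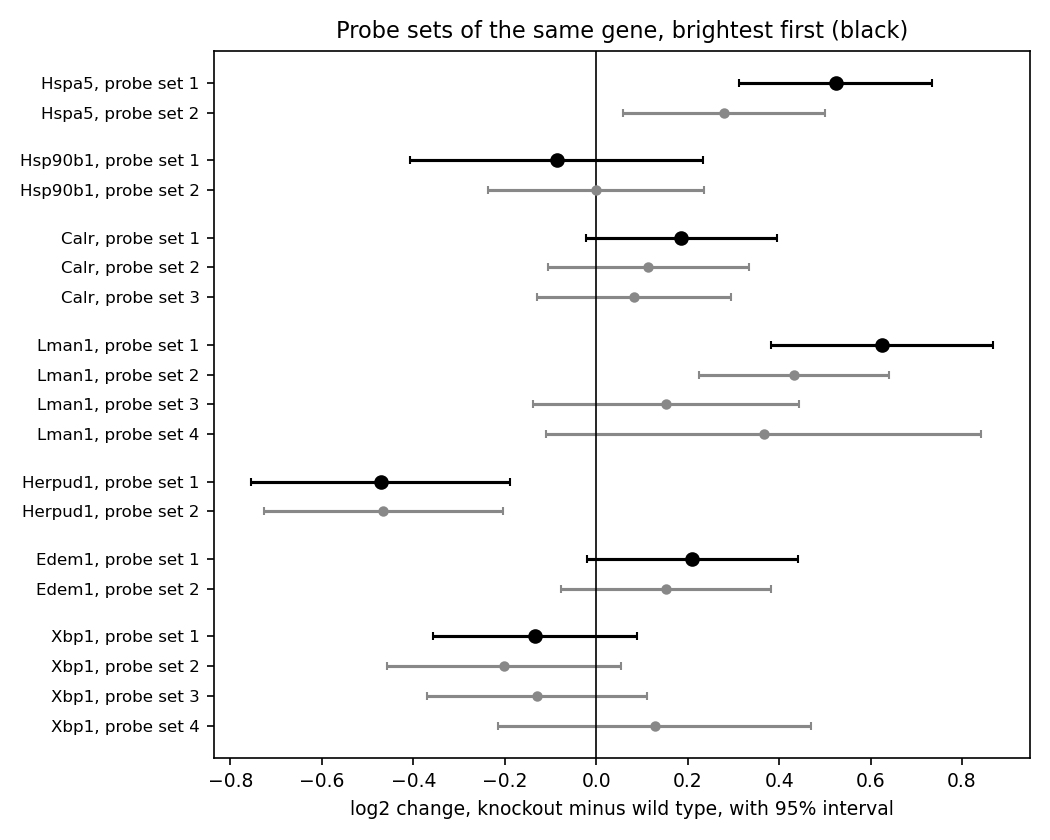
Log2 change (knockout minus wild type) with 95% intervals for each kept probe set of 7 ER genes, brightest in black. The probe sets of Herpud1 give the same change, those of Hspa5 and Lman1 share a sign but differ in size, and those of Xbp1 lie on both sides of 0.

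Genes that admit and glycosylate secretory proteins had the smallest changes. The translocon subunits Sec61a1 (0.02 ± 0.10) and Sec61b (-0.04 ± 0.11), the translocon-associated proteins Ssr1 (0.02 ± 0.11), Ssr2 (0.13 ± 0.12), Ssr3 (-0.05 ± 0.11) and Ssr4 (-0.21 ± 0.11), and the oligosaccharyltransferase subunits Rpn1 (0.03 ± 0.11), Rpn2 (0.00 ± 0.14) and Ddost (-0.23 ± 0.14) all had overlapping groups. Of the 9 measured genes, 0 were called by limma and 0 had an unadjusted p under 0.05, beside 0.423% and 10.3% of all genes. The lowest limit of the 95% intervals in this group was -0.54, for Ddost, and the highest was 0.40, for Ssr2. The brightest probe set of Sec61a1 was near 0, but 1 of its other 5 kept probe sets was lower in every knockout array, at -0.41 ± 0.17 (limma, adjusted p = 0.457).

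Of the 8 ER export genes, 3 had an unadjusted p under 0.05, all higher in knockout, beside 10.3% of all genes in either direction and 4.57% higher. They include both proteins of a known receptor. Lman1 (ERGIC-53) and Mcfd2 form the complex that carries coagulation factors V and VIII out of the ER. Lman1 read 24386, 28454 and 29306 in knockout and 18789, 18745 and 15731 in wild type. The groups were well apart, with means of 27382 ± 2629 (SD, n = 3) and 17755 ± 1753.

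The call for Lman1 depended on the arrays and the settings. It held without knockout replicate 1 (limma, adjusted p = 0.0268). The adjusted p was 0.139 after leaving out knockout replicate 2 and 0.101 after replicate 3. For the wild-type arrays it was 0.121, 0.0808 and 0.154 after leaving out replicates 1, 2 and 3, so each of these 5 omissions ended the call, while the change stayed between 0.54 and 0.71. Its second probe set stood at 0.43 ± 0.09 (adjusted p = 0.0903), and the others at 0.15 and 0.37 with overlapping groups. The mean of its 4 probe sets gave 0.39 and an adjusted p of 0.14, which moves the value by over 1.5 times. Over 10 other settings of the fit the adjusted p ran from 0.0282 to 0.294, and 5 of the 10 kept the call.

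Mcfd2 read 21076, 24580 and 24866 in knockout and 15280, 19721 and 16510 in wild type. All knockout arrays were above all wild-type arrays, with a change of 0.46 ± 0.12 (limma, adjusted p = 0.157), or 1.37-fold. The change lay between 0.38 and 0.56 with 1 array left out. The difference between Lman1 and Mcfd2 within an array, a pair also chosen after the values were seen, overlapped between the groups. Its group difference was 0.17 (exact permutation test, two-sided p = 0.4). With 3 arrays per group this does not show that these genes change alike.

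Sar1b, the GTPase that starts the COPII coat and is needed for chylomicron export in the gut, read 53718, 48320 and 46999 in knockout and 41331, 43920 and 40686 in wild type. Its groups did not overlap, with a change of 0.24 ± 0.09 and an adjusted p of 0.374. Its unadjusted limma p of 0.0179 was 0.0543 without wild-type replicate 1, 0.0595 without wild-type replicate 3 and 0.085 without the intensity trend. The coat proteins Sec23a (-0.01 ± 0.11), Sec23b (0.18 ± 0.12), Sec24d (0.13 ± 0.14) and Sec13 (-0.01 ± 0.16) and the lectin Lman2 (0.13 ± 0.13) had overlapping groups. None of the 4 elements searched was found before Mcfd2 or Sar1b, while Sec24d held the XBP1 element UPRE (TGACGTGG), present in 0.563% of promoters.

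Beyond the 48 members, 154 other genes of the same pathways were listed, of which 140 were measured and 132 were bright enough to test. None was called by limma, and 9 (6.82%) had an unadjusted p under 0.05, 5 higher and 4 lower, beside 10.3% of all genes. The median change of the 140 was 0.017. Among 37 measured export and retrieval genes, 19 had positive changes and 18 negative ones, with a median of 0.0003. Of the 35 tested, 4 (11.4%) had an unadjusted p under 0.05, near the 10.3% of all genes, 3 higher and 1 lower. They include Arcn1, a subunit of the COPI coat that returns proteins from the Golgi to the ER, at 0.52 ± 0.12 (adjusted p = 0.125), and Ergic1, a membrane protein of the ER-Golgi intermediate compartment, at 0.58 ± 0.16 (adjusted p = 0.207). The others were Surf4, a cargo receptor, at 0.29 ± 0.10 and Tmed7, a p24 cargo receptor, at -0.35 ± 0.12, named after their values were seen. Both Arcn1 and Ergic1 had no overlap between the groups: Arcn1 read 12988, 11849 and 13232 in knockout and 9381, 7413 and 9894 in wild type. Ergic1 read 1915, 1896 and 2241 against 1486, 1211 and 1350.

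Other folding genes (25 tested) had 0 higher and 3 lower at an unadjusted p under 0.05. This is 12%, beside 10.3% of all genes. Stress signalling genes (22) and degradation genes (21) had 0 in either direction, and translocon and glycosylation genes (29) had 2 higher and 0 lower. The latter were Dpagt1, the first enzyme of N-glycan assembly, at 0.60 ± 0.20 and Dad1, an oligosaccharyltransferase subunit, at 0.26 ± 0.11, also named after their values were seen. The plot of the other pathway genes shows each list spread around 0.

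**Figure D4:**
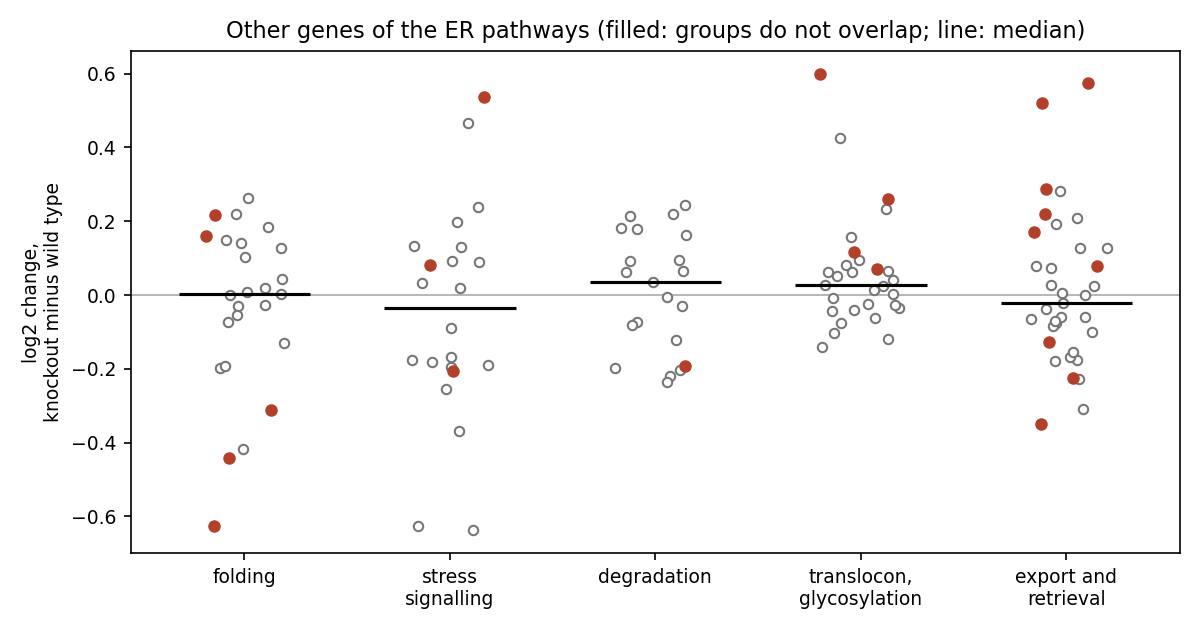
Log2 change (knockout minus wild type) of the 132 tested ER pathway genes outside the 48 members, by list; filled points are genes whose groups did not overlap and lines are list medians. The highest points of the export and retrieval list are Ergic1 and Arcn1, at 0.58 and 0.52.

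Liver RNA holds several cell types, and fewer cells of a type cannot be told apart from less RNA per cell. Hepatocyte markers were above background in all arrays (9 of 9 measured), all 9 had positive changes and 0 were called, and their summed intensity was 1274320 to 1495330 in knockout and 1210190 to 1378840 in wild type. Macrophage markers (2 of 12 with positive changes) summed to 18327 to 28333 against 22890 to 30463, stellate cell markers (1 of 11) to 24783 to 31543 against 28559 to 39035, and endothelial markers (4 of 11) to 18334 to 19559 against 18957 to 19217. Marco, a macrophage marker, was below background in every array.

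Plasma and B cells and pancreatic acinar cells are rich in ER, and their markers were measured for that reason. Of the plasma and B cell list, 8 of 11 markers were measured and 4 had positive changes. Their sum was 33485 to 35013 in knockout and 25908 to 28592 in wild type, nearly all of it from Sdc1, which hepatocytes also express. Without Sdc1 it was 2863 to 3330 against 2513 to 3244. Pancreatic acinar markers (5 of 8 with positive changes) summed to 7208 to 10180 against 10090 to 12748, with Cpa1, Cpb1 and Ctrb1 below background in every array. Most of that sum was Cela1, an elastase. Picked after the values were seen, it read 7968, 6765 and 4663 in knockout and 9489, 9132 and 9650 in wild type, without overlap (-0.58 ± 0.17, limma, adjusted p = 0.245). Cholangiocyte markers (2 of 5 with positive changes) summed to 736 to 833 against 728 to 1153. The plasma cell marker Tnfrsf17 and the cholangiocyte marker Epcam were also below background throughout. Their part in the values of the ER genes was not tested.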

How the data were processed

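The authors deposited probe set intensities on a linear scale, 1 column per array, processed with GCOS 1.2 per the submitters' processing notes. The mean after trimming 2% at each end was 2501.32 to 2501.42 on every array, so arrays had been scaled before deposit. The table held 22690 probe sets, 64 of them controls, which were left out. Of the other 22626, the platform annotation gave 20380 a single gene. Symbols were updated through RefSeq (GRCm38.p6).

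The scale for testing was log2(intensity + 16), fitted by limma version 3.58.1 under R version 4.3.3 (lmFit, eBayes with intensity trend, all 6 arrays, no covariate), after keeping the upper 60% of probe sets. The background reference is the 95th percentile of 27 Bacillus subtilis control probe sets on each array. The fit was tested on simulated data only with added changes larger than that of any tested member. Its behaviour for changes of the members' size was not tested. The labels count 3 mice per group but do not tie each array to 1 mouse, so p-values measure the spread between these samples, and 3 arrays per group limit the precision. Array values were given for the stress sensors and their factors, for Hspa5, Hsp90b1 and Herpud1, and for members with an unadjusted p under 0.05 or no overlap; other pathway genes were named by rule at an unadjusted p under 0.01 (Arcn1 and Ergic1), and 7 more, said to be so, after their values were seen. The marker Cela1 was given by array after its values were seen. The members and lists were chosen with earlier results of these data known. Alternatives were pseudocounts of 1 and 64, quantile normalization, median centring, no filter or the upper 40%, no trend, array weights, a replicate block, the mean of a gene's probe sets, and each array left out.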

Additional observations from a re-analysis of the deposited data

How the results depend on the processing

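The number of members called, 1 in the report, was 2 with a pseudocount of 64, with the upper 40% of probe sets and with array weights, where Hspa5 joined Lman1. It was 0 with median centring, with no filter, without the intensity trend, with the replicate block and with the mean of a gene's probe sets, and 0 to 1 with 1 array left out. The change of Hspa5 was called at 0.523, 0.5235 and 0.5101 in the same 3 settings (limma, adjusted p = 0.0479, 0.0395 and 0.0378). Over its 10 alternatives the adjusted p ran from 0.0378 to 0.357. With the replicate block its change was 0.5235 (adjusted p = 0.159). Samples of the same number did not deviate together over all kept probe sets (correlations of -0.0589, -0.06 and -0.0651). The labels do not say whether the numbers pair the samples, and a pairing that affects only some genes was not tested. The count of members with an unadjusted p under 0.05 was 4 to 7 over the alternatives and 5 to 8 with 1 array left out. The count without overlap was 8 to 12, and 10 to 17 with 1 array left out, when 24.1% to 30.5% of all genes did not overlap. With quantile normalization Atf6 and Calr overlapped between the groups, while Creb3l3, Manf, Pdia4, Syvn1 and Ssr4 no longer did. Ssr4 then also had an unadjusted limma p under 0.05. The members' median change over tested members was 0.039, and 0.029 to 0.097 with 1 array left out, highest without knockout replicate 2. Of the 17 tested members given by array (Atf3 was too dim to test), 14 kept their sign in every setting that gave them a value; Eif2ak3, Atf4 and Hsp90b1 did not.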

Other observations

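The ER export genes did not stand alike in the 3 knockout samples. Their median deviation from the wild-type mean was 0.31 in knockout replicate 1, -0.02 in replicate 2 and 0.25 in replicate 3, beside 0.02, 0.07 and -0.07 in the wild-type arrays. Lman1 and Mcfd2 did not follow this order, being as high in knockout replicate 2 as in replicate 3. The median deviation of the chaperones was 0.16, 0.04 and 0.09 in knockout and 0.06, -0.06 and -0.06 in wild type. The translocon and glycosylation genes were also lowest in knockout replicate 2 (0.13, -0.14 and -0.02 in knockout, 0.11, -0.02 and -0.08 in wild type). So were all members together (0.14, 0.00 and 0.09 in knockout). The sensors and their factors were lowest in replicate 1 (-0.11, 0.01 and -0.01). Knockout replicate 2 had the smallest share of probe sets above background, 64.4%. Over all genes it ran from -0.01 to 0.02.

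Of the 25 other folding genes tested, 3 (12%) had an unadjusted p under 0.05, near the 10.3% of all genes. All 3 had lower means in knockout, beside 5.69% of all genes that were lower at this threshold. Of the 26 measured, 14 had positive changes and 12 negative ones. Fkbp11, a prolyl isomerase of the secretory pathway, stood at -0.63 ± 0.23, Dnajc10, a disulfide reductase that works with Hspa5, at -0.44 ± 0.17, and Pdia5 at -0.31 ± 0.12. None passed over all genes (limma, adjusted p = 0.384, 0.432 and 0.421), and each was lower in every knockout array. These 3 genes were chosen after their values were seen.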
